A study of Mus musculus with 86 samples.

Results

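Macrophages and neighbouring cells recognise dying cells through several sets of receptors, and the measurements here concern 8 genes of that system outside the TAM family of receptor tyrosine kinases: Timd4, Stab1, Stab2, Mfge8, Lrp1, Cd36, Scarb1 and Elmo1. They were chosen by gene name and not by a cut on measured values, but with earlier results of these data known. They are 8 of the 31054 genes in the count files and of the 38277 in the FPKM tables. Each of the 8 had 1 entry in every file. Dying cells expose phosphatidylserine on their outer membrane, and phagocytes bind it directly through receptors or through secreted bridging proteins before the corpse is engulfed and its lipid is handled. Timd4, Stab1 and Stab2 encode phosphatidylserine receptors, Lrp1, Cd36 and Scarb1 encode endocytic and scavenger receptors that also take part in uptake, Mfge8 encodes a secreted bridging protein, and Elmo1 encodes a cytoplasmic adaptor that relays receptor signals to the actin cytoskeleton. Mfge8 and Elmo1 are thus not receptors themselves.

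The study compared fibrotic and sham-operated mouse organs with and without loss of MERTK, a TAM receptor of macrophages, by bulk RNA-seq. In the knockout experiment, mice labelled wild type or Mertk knockout had unilateral ureteral obstruction (UUO), bile duct ligation (BDL) or sham surgery, with 3 sham and 3 UUO wild-type kidney libraries, 4 of each under the knockout label, and 4 liver libraries in each of the 4 groups. In the inhibitor experiment, mice labelled wild type were injected with UNC569, a MERTK inhibitor, or with DMSO, its vehicle. Its kidney table held 3 sham and 4 UUO libraries with DMSO and 3 sham and 7 UUO libraries with UNC569, its liver table held 3 sham and 6 BDL libraries with DMSO and 3 sham and 4 BDL libraries with UNC569, and its lung table held 3 sham and 6 bleomycin libraries in each arm. The labels gave no age, sex, strain, dose or time, and did not say how the knockout allele was made or in which cells it acts. They also did not say that libraries of a group came from separate animals, so p-values here measure the spread between these libraries, which may be technical. Levels of the knockout experiment are CPM, the reads of a gene per M reads of its library, scaled separately in kidney and liver, and those of the inhibitor experiment are FPKM, which correct for gene length and can be compared between genes. A gene passed a test at an adjusted p under 0.05. Whether groups overlapped is described for single genes and is no test. The share of all genes whose groups did not overlap is not given here.

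Promoter sequence is shown for 4 of the genes because 3 of them rose and 1 fell in obstructed kidney. RefSeq (GRCm38.p6) held a window for 7 of the 8 genes, and the 250 bases before the annotated start are printed 5′ to 3′ on the strand of the gene. For Cd36 that start lies inside the longer gene span of GENCODE given with its values, so the printed bases are not those before the first start of that model. The windows are chr14:31168642-31168891, minus strand for Stab1, chr7:79149061-79149310, minus strand for Mfge8, chr10:127621149-127621398, minus strand for Lrp1 and chr5:17835897-17836146, minus strand for Cd36. Capitals mark the GC box of Sp1-type factors, GGGCGG, read on either strand.
Stab1: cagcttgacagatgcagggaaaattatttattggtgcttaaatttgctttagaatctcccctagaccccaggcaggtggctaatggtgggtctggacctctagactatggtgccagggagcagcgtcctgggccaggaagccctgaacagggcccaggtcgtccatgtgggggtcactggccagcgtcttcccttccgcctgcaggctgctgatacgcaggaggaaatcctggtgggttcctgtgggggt
Mfge8: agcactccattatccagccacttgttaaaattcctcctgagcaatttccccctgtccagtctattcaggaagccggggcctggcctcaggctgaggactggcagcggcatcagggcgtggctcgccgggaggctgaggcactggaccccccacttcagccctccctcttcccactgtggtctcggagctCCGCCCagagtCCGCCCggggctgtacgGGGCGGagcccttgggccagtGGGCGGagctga
Lrp1: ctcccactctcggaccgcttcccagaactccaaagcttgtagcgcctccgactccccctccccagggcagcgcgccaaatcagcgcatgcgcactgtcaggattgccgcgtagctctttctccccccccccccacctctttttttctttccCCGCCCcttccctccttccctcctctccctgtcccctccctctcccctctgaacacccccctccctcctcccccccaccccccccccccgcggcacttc
Cd36: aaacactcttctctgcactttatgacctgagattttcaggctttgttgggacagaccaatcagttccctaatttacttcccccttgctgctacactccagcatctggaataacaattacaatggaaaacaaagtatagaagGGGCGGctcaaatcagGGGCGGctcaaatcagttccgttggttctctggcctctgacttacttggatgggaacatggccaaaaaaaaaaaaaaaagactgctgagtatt
The Mfge8 window held 4 GC boxes, that of Cd36 held 2, that of Lrp1 held 1 and that of Stab1 held 0, and 32.7% of the 32851 promoter windows of this length held at least 1. Of the other motifs searched on both strands, PU.1 (GAGGAAGT, in 2.44% of windows), AP-1 (TGANTCA, 6.75%) and CEBP (TTGCNNAA, 9.56%) had no match in any window of the 7 genes. TATAAA (12.4%) matched once, in an Elmo1 window. GC content was 65.2% for Mfge8, 67.2% for Lrp1, 57.2% for Stab1 and 43.2% for Cd36, beside a median of 52.4% over all windows. These matches describe letters only. Among the windows printed, GC boxes were found both before genes that rose and before Cd36, which fell. Stab2 also fell in wild-type obstructed kidney, and its window, not printed, held 0 matches to the motifs searched.

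Reads in genes ranged from 7.22 to 28.5 M (megareads) per kidney library and from 14.5 to 23.4 M per liver library, and the depth behind the FPKM values is unknown. A pair of kidney libraries was left out of the main comparisons. The library labelled UUO sham wild type 1 had an Alb level of 222100 CPM and an Lrp2 level of 4.33 CPM, and the library labelled UUO wild type 1 had an Adipoq level of 825 CPM. In the libraries used, the tubule gene Lrp2 was at 2031 to 2895 CPM in wild-type sham kidney, and Sftpc of lung epithelium was at 1145 to 1461 FPKM in sham lung with DMSO. Sham wild type 3 also stood apart, with 58.5% unmapped reads and a fibroblast marker sum of 6870 CPM beside 309 and 367 CPM in the other wild-type sham kidneys. Mertk itself did not separate the genotype labels in kidney: it ranged from 52.6 to 79.6 CPM in wild-type sham and 59.6 to 83.6 CPM in knockout-label sham, and from 51.1 to 65.0 CPM and 44.5 to 63.0 CPM after UUO. Wild-type liver held 10.5 to 18.1 CPM after sham and 21.3 to 28.4 CPM after BDL, and knockout-label liver held 10.8 to 20.5 CPM and 6.95 to 18.8 CPM. Transcript from a disrupted allele would be counted too, so the levels are no test of genotype and libraries are called by their labels.

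The sham organs were led by different genes of the set. Per gene length, sham kidney with DMSO was led by Mfge8, Cd36 and Lrp1, with mean levels of 80.7 ± 10.7, 75.5 ± 24.1 and 54.3 ± 11.3 FPKM (SD, n = 3), whose ranges overlapped. Stab1 at 14.5 ± 9.86 FPKM and Scarb1 at 9.97 ± 2.001 FPKM came next and overlapped, then Elmo1 at 1.15 ± 0.345 FPKM and Stab2 at 0.691 ± 0.270 FPKM, and Timd4 was listed at 0 in all 3. Sham liver was led by Lrp1, an endocytic receptor of hepatocytes and macrophages, at 368 ± 82.7 FPKM, and by Scarb1, the hepatic receptor for high-density lipoprotein, at 86.2 ± 16.4 FPKM. Neither overlapped the gene below it. Cd36, Stab1, Mfge8, Stab2 and Timd4 followed from 20.3 ± 15.1 down to 2.88 ± 1.51 FPKM, each overlapping its neighbour, and Elmo1 was lowest at 0.570 ± 0.228 FPKM. Sham lung was again led by Lrp1 at 279 ± 45.04 FPKM, above Mfge8 at 155 ± 32.01 and Cd36 at 137 ± 8.01 FPKM, which overlapped. Scarb1, Stab1 and Elmo1 at 37.7 ± 14.4, 33.5 ± 14.9 and 14.7 ± 2.72 FPKM formed the next overlapping set, and Timd4 at 0.421 ± 0.197 and Stab2 at 0.107 ± 0.0717 FPKM were lowest. The 3 tables were normalised separately, so the orders are read within an organ only.

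All 8 genes differed between wild-type sham liver and kidney, 5 higher in liver and 3 lower, where 21.8% of 16852 genes were higher and 28.8% lower. Scarb1 was higher in liver by a log2 fold change of 4.65 ± 0.32 (adjusted p = 2.64e-12), Stab2 by 4.04 ± 0.51 (adjusted p = 2.00e-07), Lrp1 by 3.87 ± 0.47 (adjusted p = 1.17e-07) and Stab1 by 1.95 ± 0.35 (adjusted p = 3.45e-05), in edgeR's quasi-likelihood test with Benjamini-Hochberg adjustment (fold changes are given ± SE). Timd4 had no read in the 3 wild-type sham kidney libraries and was at least 16.7-fold higher in liver, taking a floor of 3 counts in each kidney library. Cd36, Elmo1 and Mfge8 were lower in liver, with log2 fold changes of -3.37 ± 0.35 (adjusted p = 6.67e-09), -1.80 ± 0.45 (adjusted p = 0.00156) and -1.78 ± 0.37 (adjusted p = 2.43e-04). Clec4f, which marks the resident macrophages of liver, was at 0 in every wild-type kidney library used from the knockout experiment and at 62.8 to 80.2 CPM in sham liver. The Elmo1 difference did not pass without sham wild type 3 (log2 -0.52, adjusted p = 0.259). Omitting the libraries noted to have a bad sequence file left only sham wild type 2 in wild-type sham kidney. The Elmo1 and Mfge8 differences were then log2 -0.36 and -0.71. With the 2 left-out kidney libraries included, Timd4 did not pass (log2 1.66, adjusted p = 0.337).

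In wild-type kidney 4 of the 8 genes rose after obstruction and 2 fell. Stab1, a scavenger receptor of sinusoidal endothelium and a subset of macrophages (ENSMUSG00000042286, chr14:31139013-31168641, minus strand, GRCm38), was at 26.4, 13.03 and 31.1 CPM in the 3 sham libraries and at 201, 117 and 179 CPM after UUO. All 3 UUO libraries lay above all sham libraries, and Stab1 rose by a log2 fold change of 2.81 ± 0.36 (adjusted p = 5.57e-05). Mfge8 (ENSMUSG00000030605, chr7:79133768-79149060, minus strand) was at 42.4, 89.3 and 103 CPM in sham and 230.2, 259 and 248 CPM after UUO. Its groups did not overlap either, and the rise was 1.65 ± 0.26 (adjusted p = 2.58e-04). Scarb1 (ENSMUSG00000037936, chr5:125277087-125341094, minus strand) went from 14.6, 12.7 and 17.9 CPM to 63.5, 38.6 and 53.3 CPM, again without overlap, and rose by 1.78 ± 0.33 (adjusted p = 7.65e-04).

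Lrp1 (ENSMUSG00000040249, chr10:127538161-127621148, minus strand) was at 40.96, 239 and 77.2 CPM in sham kidney and 505, 214 and 488 CPM after UUO. Sham wild type 3, which held the high fibroblast marker sum, lay above the lowest UUO library, so the groups overlapped. Lrp1 rose by 1.76 ± 0.54 (adjusted p = 0.0181) and by 2.66 (adjusted p = 6.28e-04) without sham wild type 3. It did not pass when sham wild type 2 or 4 or UUO wild type 2 or 4 was left out (adjusted p = 0.0525 to 0.0594). Elmo1 (ENSMUSG00000041112, chr13:20090596-20608353, plus strand) had 3.2, 18.5 and 3.05 CPM in sham and 14.7, 10.7 and 22.3 CPM after UUO, with the same sham library high. Its log2 fold change of 0.99 ± 0.54 (adjusted p = 0.161) did not pass, but that without sham wild type 3 did (2.24, adjusted p = 2.03e-04).

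Cd36, a scavenger receptor that also carries fatty acids into cells (ENSMUSG00000002944, chr5:17781690-17888801, minus strand), was the gene that fell furthest. It was at 814, 349.5 and 596 CPM in sham kidney and 65.2, 63.5 and 71.9 CPM after UUO. Every UUO library lay below every sham library, with a log2 fold change of -3.13 ± 0.34 (adjusted p = 1.79e-05). Stab2 (ENSMUSG00000035459, chr10:86841198-87008025, minus strand), close kin to Stab1 and a hyaluronan receptor of sinusoidal endothelium, was low throughout, at 4.8, 5.63 and 3.05 CPM in sham and 1.38, 0.974 and 1.25 CPM after UUO. These levels rest on 35 to 60 and 18 to 28 reads per library. Stab2 fell, the opposite direction to Stab1, with a log2 fold change of -1.89 ± 0.67 (adjusted p = 0.0360) and no overlap. The Stab2 call did not hold in 5 of the 6 omissions of 1 of these libraries (adjusted p = 0.0569 to 0.0974). Timd4 (ENSMUSG00000055546, chr11:46810800-46844332, plus strand) had 4, 0 and 2 reads in the UUO libraries and none in sham, too few to test.

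The counts stood beside 23.3% of 16395 genes called higher and 16% called lower in the same comparison. The median log2 fold change was 1.65 over the 7 genes tested and 0.16 over all genes. Markers of other cells moved at the same time. All 9 macrophage markers rose, from a summed 101 to 195 CPM in sham to 1276 to 2380 CPM after UUO, and all 8 proximal tubule markers fell, from 10210 to 17190 CPM to 740 to 1211 CPM. Of 8 endothelial markers 6 rose. In bulk RNA, fewer or more cells of a type and less or more RNA per cell cannot be told apart, and the part of these cell types in the changes was not tested. With the 2 left-out libraries included, Lrp1 (log2 0.38, adjusted p = 0.711), Cd36 (log2 -0.85, adjusted p = 0.411) and Scarb1 (log2 -0.41, adjusted p = 0.738) did not pass and Elmo1 did (log2 1.57, adjusted p = 0.0390). In the left-out sham library Lrp1 was at 1082, Scarb1 at 349 and Stab2 at 73.3 CPM, and in the left-out UUO library Cd36 was at 918 CPM.

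**Figure D1:**
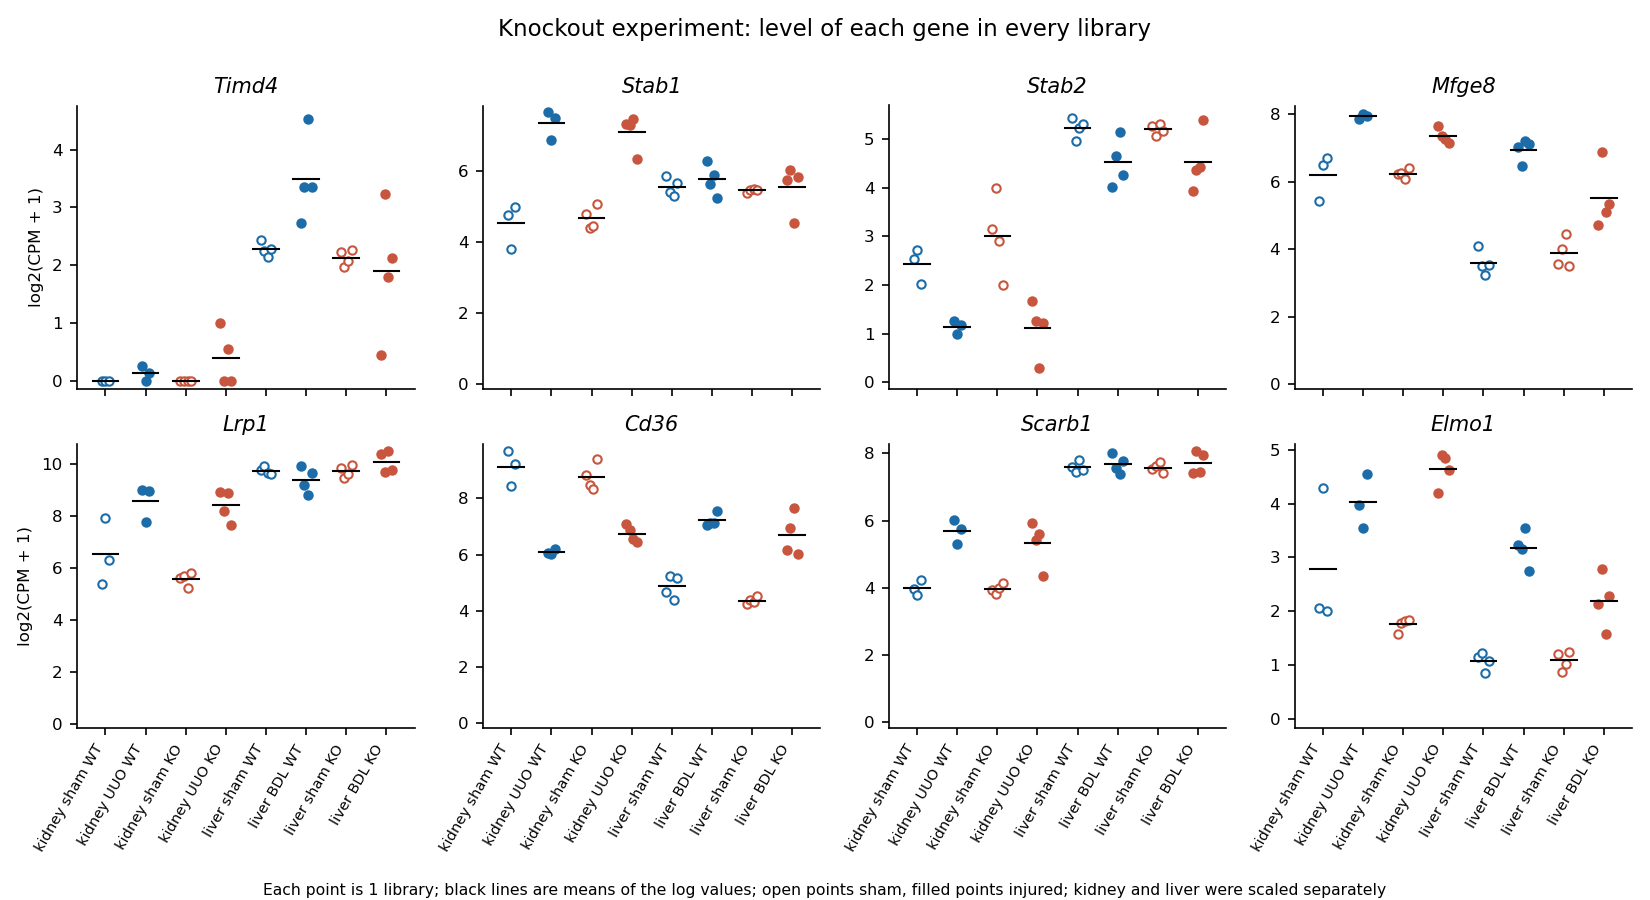
Levels of the 8 genes in every library of the knockout experiment as log2(CPM + 1), with sham as open points, injured as filled points and the black lines as means of the log values. Wild-type UUO libraries sit above sham for Stab1, Mfge8 and Scarb1 and below sham for Cd36 and Stab2, and BDL libraries of wild type sit above sham for Timd4, Mfge8, Cd36 and Elmo1.

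Under the knockout label, all 7 genes that could be tested changed after obstruction, 5 up and 2 down, where 34.7% of genes rose and 24.4% fell. Elmo1 was at 2.01, 2.45, 2.53 and 2.6 CPM in sham and 17.4, 29, 27.6 and 23.7 CPM after UUO and rose by 3.34 ± 0.51 (adjusted p = 7.57e-05). Lrp1 was at 47.1, 50.8, 36.2 and 54.5 CPM and then 487, 292, 473 and 201 CPM, a rise of 2.94 ± 0.49 (adjusted p = 1.52e-04). In both genes all 4 UUO libraries lay above all 4 sham libraries. Stab1 rose by 2.51 ± 0.31 (adjusted p = 1.38e-05), Scarb1 by 1.52 ± 0.28 (adjusted p = 3.61e-04) and Mfge8 by 1.13 ± 0.22 (adjusted p = 6.18e-04). Cd36 was at 449.5, 352, 324 and 666 CPM in sham and 136, 115, 92.05 and 85.2 CPM after UUO. It changed by -2.06 ± 0.28 (adjusted p = 3.34e-05), and Stab2 by -2.66 ± 0.58 (adjusted p = 0.00131), each without overlap. All 9 macrophage markers rose here as well, from a summed 94.2 to 198 CPM to 1710 to 2916 CPM, and all 8 proximal tubule markers fell, from 14890 to 22710 CPM to 283.5 to 2651 CPM. Scarb1 did not pass in the fit that included the 2 left-out wild-type libraries (log2 1.36, adjusted p = 0.229). Timd4 had 0 reads in 4 sham libraries and 19, 0, 10 and 0 after UUO.

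None of these genes passed between the genotype labels in kidney. After UUO 0 of 7 passed in edgeR and 0 in DESeq2, and 0% of all genes passed. An unadjusted p under 0.05 in edgeR was found for 2 of the 7, beside 1902 of 16395 genes. Those 2 were Mfge8, which the wild-type libraries held at 230.2, 259 and 248 CPM and the knockout-label libraries at 201, 163, 154 and 140.4 CPM, and Cd36, at 65.2, 63.5 and 71.9 and 136, 115, 92.05 and 85.2 CPM. Neither pair of groups overlapped. The log2 fold changes were -0.58 ± 0.24 (adjusted p = 0.430) for Mfge8 and 0.68 ± 0.30 (adjusted p = 0.430) for Cd36. In sham kidney 0 of 7 passed in edgeR beside 0.0061% of all genes, and 2575 of 16395 genes had an unadjusted p under 0.05. Lrp1 and Elmo1 had an unadjusted p under 0.05, with log2 fold changes of -1.33 ± 0.49 (adjusted p = 0.239) and -1.73 ± 0.52 (adjusted p = 0.216), the Elmo1 groups not overlapping. Without sham wild type 3 these were -0.32 and -0.36 (adjusted p = 0.813 and 0.748), while Elmo1 passed in DESeq2 (adjusted p = 0.0425) and without sham wild type 4 (adjusted p = 0.0117).

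The UUO responses under the 2 labels were also compared directly, and again 0 of 7 genes and 0% of all genes passed in edgeR. An unadjusted p under 0.05 was found for 2 of the 7, beside 4466 of 16395 genes. Those 2 were Elmo1, with the largest difference at 2.35 ± 0.72 (adjusted p = 0.0969), and Cd36 at 1.07 ± 0.42 (adjusted p = 0.129), while Lrp1 lay between them at 1.18 ± 0.69 (adjusted p = 0.277). Without sham wild type 3 the Elmo1 difference was 0.97 (adjusted p = 0.205) and that of Lrp1 0.16 (adjusted p = 0.881). Omitting the libraries noted to have a bad sequence file gave 1.09 for Elmo1 and -0.70 for Lrp1. That omission left only sham wild type 2 and UUO wild type 2 in the wild-type groups, so only effect sizes are given for it. With the 2 left-out libraries included, Elmo1 was at 1.61 and Cd36 at -1.38 (adjusted p = 0.209 and 0.443). Elmo1 passed in DESeq2 (2.35, adjusted p = 0.0233), where it was the only gene of the 8, and both Elmo1 and Mfge8 passed without sham wild type 4 (2.63 and -0.88, adjusted p = 0.00931 and 0.0447). The Mfge8 difference was -1.36 without the libraries noted to have a bad sequence file.

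In wild-type liver 4 of the 8 genes rose after bile duct ligation and 0 fell, where 16.3% of 13492 genes rose and 12.8% fell. Mfge8 was at 16.2, 10.4, 8.46 and 10.5 CPM in sham liver and 129.6, 88, 146 and 138 CPM after BDL, and rose by 3.46 ± 0.43 (adjusted p = 8.68e-05). Elmo1 was at 1.24, 1.35, 0.826 and 1.11 CPM and then 8.44, 7.97, 10.8 and 5.74 CPM, from 12 to 21 reads per sham library, and rose by 2.86 ± 0.34 (adjusted p = 5.67e-05). Cd36 was at 24.6, 36.4, 19.9 and 35.1 CPM and 132, 137, 139.5 and 187 CPM. It rose by 2.36 ± 0.32 (adjusted p = 1.46e-04), where in obstructed kidney it had fallen. In all 3 genes every BDL library lay above every sham library.

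Timd4, known as a marker of resident Kupffer cells in liver, was at 4.41, 3.72, 3.44 and 3.85 CPM in sham and 5.67, 9.18, 22.2 and 9.29 CPM after BDL. The groups did not overlap, and BDL wild type 3 held the highest value. Timd4 rose by 1.59 ± 0.57 (adjusted p = 0.0472), and by 1.08 without BDL wild type 3, which did not pass (adjusted p = 0.170). It also lost its call in 11 further omissions and with the replicate number as a block (1.46, adjusted p = 0.0875). Stab2 was at 42.5, 30.4, 36.7 and 38.7 CPM in sham and 15.2, 24.4, 34.7 and 18.2 CPM after BDL, overlapping, with a log2 fold change of -0.68 ± 0.29 (adjusted p = 0.0875). It passed without BDL wild type 3 (-0.92, adjusted p = 0.0318), without BDL knockout 4 (-0.69, adjusted p = 0.0283) and without BDL knockout 1 and 3 (-0.69, adjusted p = 0.0343). Lrp1, Stab1 and Scarb1 overlapped between sham and BDL and had log2 fold changes of -0.30 ± 0.26, 0.25 ± 0.27 and 0.11 ± 0.19 (adjusted p = 0.393, 0.509 and 0.689). The median was 0.92 over the 8 genes and 0.03 over all genes. All 9 macrophage markers rose, from a summed 176 to 243 CPM to 779 to 1594 CPM, and 4 of the 6 Kupffer markers tested rose, from 370 to 511 CPM to 558 to 992 CPM. Of the sinusoidal endothelial markers 0 of 7 tested passed. The part of these cells in the changes was not tested.

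Under the knockout label 3 of the 8 genes rose after BDL, where 14% of genes rose and 11.2% fell. Cd36 was at 18.1, 19.7, 18.8 and 21.99 CPM in sham and 70.5, 123, 203 and 63.1 CPM after BDL, a rise of 2.55 ± 0.32 (adjusted p = 1.41e-04). Mfge8 was at 10.7, 15.2, 20.7 and 10.3 CPM and 25.1, 117, 33.3 and 39.8 CPM, with BDL knockout 2 far above the others, and rose by 1.92 ± 0.41 (adjusted p = 0.00438). Elmo1 was at 1.31, 0.849, 1.03 and 1.39 CPM and 3.39, 5.94, 1.998 and 3.88 CPM and rose by 1.73 ± 0.33 (adjusted p = 0.00239). The groups did not overlap in these 3 genes. Timd4 ranged more widely than in any sham group, with 3.67, 2.91, 3.21 and 3.78 CPM in sham and 0.370, 8.45, 2.48 and 3.37 CPM after BDL, and its log2 fold change was 0.11 ± 0.57 (adjusted p = 0.899). Stab2 did not pass (log2 -0.59 ± 0.29, adjusted p = 0.139), except without BDL knockout 4 (-0.99, adjusted p = 0.00745). Lrp1 (log2 0.41 ± 0.26, adjusted p = 0.247), Stab1 (log2 0.20 ± 0.27, adjusted p = 0.619) and Scarb1 (log2 0.17 ± 0.19, adjusted p = 0.529) did not pass either. Of the 9 macrophage markers 5 rose, and of the 6 Kupffer markers tested 2 rose and 1 fell.

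The BDL libraries under the knockout label were not alike in their markers. The macrophage sum was 120, 915, 358 and 273 CPM and the Kupffer sum 103, 604, 252 and 237 CPM in the order of their numbers, so BDL knockout 2 was the highest and knockout 1 the lowest in both. Timd4 followed the same order at its extremes, and Mfge8 was also highest in BDL knockout 2 and lowest in knockout 1. Without BDL knockout 1 and 3, the same 3 genes rose, Mfge8 by 2.46, Cd36 by 2.25 and Elmo1 by 2.10 (adjusted p = 6.94e-04, 1.58e-04 and 7.49e-04).

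Between labels in BDL liver, 0 of 8 genes passed in edgeR, beside 4.39% of all genes. An unadjusted p under 0.05 was found for 4 of the 8, beside 3601 of 13492 genes. These 4 were Elmo1 (log2 -1.11 ± 0.31, adjusted p = 0.0541), Mfge8 (log2 -1.22 ± 0.40, adjusted p = 0.0751), Timd4 (log2 -1.66 ± 0.57, adjusted p = 0.0858) and Lrp1 (log2 0.69 ± 0.26, adjusted p = 0.104), and in each the groups overlapped. DESeq2 called all 4, with log2 fold changes of -1.10, -1.21, -1.65 and 0.70 (adjusted p = 0.0107, 0.0301, 0.0335 and 0.0453). Without BDL knockout 2, Timd4 (-2.48, adjusted p = 0.0153), Mfge8 (-1.93, adjusted p = 0.00465) and Elmo1 (-1.40, adjusted p = 0.0157) passed in edgeR, and without BDL wild type 1 Lrp1 did (0.89, adjusted p = 0.0429). Without BDL knockout 1 and 3, none passed and the values were -0.73 for Elmo1, -0.66 for Mfge8 and -0.96 for Timd4 (adjusted p = 0.255 to 0.368). In sham liver 0 of 8 genes passed in edgeR or DESeq2, 0 had an unadjusted p under 0.05, and 0% of all genes passed. In the comparison of BDL responses under the 2 labels, 0 of 8 genes passed (0% of all genes, 0 of the 8 in DESeq2), with Mfge8 at -1.54 ± 0.56 (adjusted p = 0.265) and Elmo1 at -1.12 ± 0.46 (adjusted p = 0.297), both at an unadjusted p under 0.05. Over all 13492 genes 1952 had such a p. Mfge8 passed without BDL knockout 2 (-2.25, adjusted p = 0.0435).

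The inhibitor experiment also held obstructed kidney, and all 6 genes that passed the filter on low values changed with DMSO, 5 up and 1 down, where 29.7% of 15338 genes rose and 25.8% fell in limma's moderated test on log2(FPKM + 1). On that scale the change of a low gene is understated. Lrp1 was at 43.5, 66.1 and 53.1 FPKM in sham and 290.5, 292, 334 and 254 FPKM after UUO, and rose by 2.42 ± 0.33 (adjusted p = 6.77e-06). Elmo1 was at 0.909, 1.55 and 1.004 FPKM and 3.63, 3.63, 5.21 and 6.18 FPKM, a rise of 1.38 ± 0.20 (adjusted p = 1.40e-05). Scarb1 was at 7.797, 10.4 and 11.7 FPKM and 21.4, 20.6, 24.7 and 17.3 FPKM, a rise of 1.01 ± 0.16 (adjusted p = 4.18e-05). In these 3 genes all 4 UUO libraries lay above all 3 sham libraries.

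Mfge8 was at 69.2, 82.5 and 90.4 FPKM in sham with DMSO and 126, 129, 141 and 106 FPKM after UUO, without overlap, and rose by 0.63 ± 0.17 (adjusted p = 0.00451). Stab1 was at 6.503, 11.4 and 25.5 FPKM and 22.6, 27.8, 23.3 and 18.4 FPKM. The third sham library held more Stab1 than 3 of the 4 UUO libraries, and the rise of 0.82 ± 0.33 (adjusted p = 0.0427) did not pass in 7 omissions (log2 0.39 to 0.82, adjusted p up to 0.309). Nor did it pass without the filter on low values (adjusted p = 0.0686). Cd36 was at 103, 62.6 and 60.6 FPKM in sham and 9.38, 6.74, 3.23 and 7.65 FPKM after UUO, with every UUO library far below every sham library, and it fell, with a log2 fold change of -3.33 ± 0.33 (adjusted p = 2.51e-07). Stab2 failed the filter at 0.960, 0.421 and 0.691 FPKM in sham and 0.0580, 0.156, 0.188 and 0.121 FPKM after UUO, again lower in every UUO library. Timd4 was listed at 0 in all sham kidneys and at 0.229, 0.0357, 0.0449 and 0 FPKM after UUO with DMSO. All 9 macrophage markers rose, from a summed 166 to 208 FPKM in sham to 2265 to 3268 FPKM after UUO, and all 8 proximal tubule markers fell, from 4218 to 5128 FPKM to 96.7 to 397 FPKM. The part of these cells in the changes was not tested.

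With UNC569 the same 6 genes changed after UUO, 5 up and 1 down, where 27.5% of genes rose and 34.5% fell. Lrp1 was at 22.2, 34.3 and 14.7 FPKM in sham and, over 7 UUO libraries, 106 to 313 with a median of 222 FPKM, and rose by 3.15 ± 0.29 (adjusted p = 6.15e-08). Stab1 was at 4.53, 5.37 and 2.56 FPKM in sham and 16.8 to 34.8 with a median of 28.4 FPKM after UUO, and rose by 2.52 ± 0.30 (adjusted p = 9.49e-07). Mfge8 was at 40.2, 40.97 and 28.4 FPKM and 95.9 to 155 with a median of 120 FPKM, a rise of 1.68 ± 0.15 (adjusted p = 4.85e-08). No UUO library fell within the sham range in these 3 genes.

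Scarb1 with UNC569 was at 6.34, 6.38 and 4.41 FPKM in sham and 16.2 to 20.8 with a median of 17.1 FPKM after UUO (log2 1.49 ± 0.15, adjusted p = 9.99e-08). Elmo1 was at 1.37, 0.615 and 0.978 FPKM and 2.92 to 4.82 with a median of 3.402 FPKM (log2 1.20 ± 0.18, adjusted p = 1.57e-05). Cd36 was at 132, 104 and 83.6 FPKM in sham and 2.37 to 8.99 with a median of 4.41 FPKM after UUO (log2 -4.24 ± 0.30, adjusted p = 2.72e-09). Each of these 3 also separated the groups, Cd36 downward. All 9 macrophage markers rose with UNC569 (66.7 to 132 FPKM summed in sham, 1645 to 2561 FPKM after UUO), and all 8 proximal tubule markers fell (3760 to 5151 FPKM in sham, 119.9 to 476 FPKM after UUO). Stab2 failed the filter at 0.992, 0.501 and 0.538 FPKM in sham and 0.0375 to 0.0963 with a median of 0.0943 FPKM after UUO, and Timd4 was at 0 to 0.0993 FPKM after UUO.

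**Figure D2:**
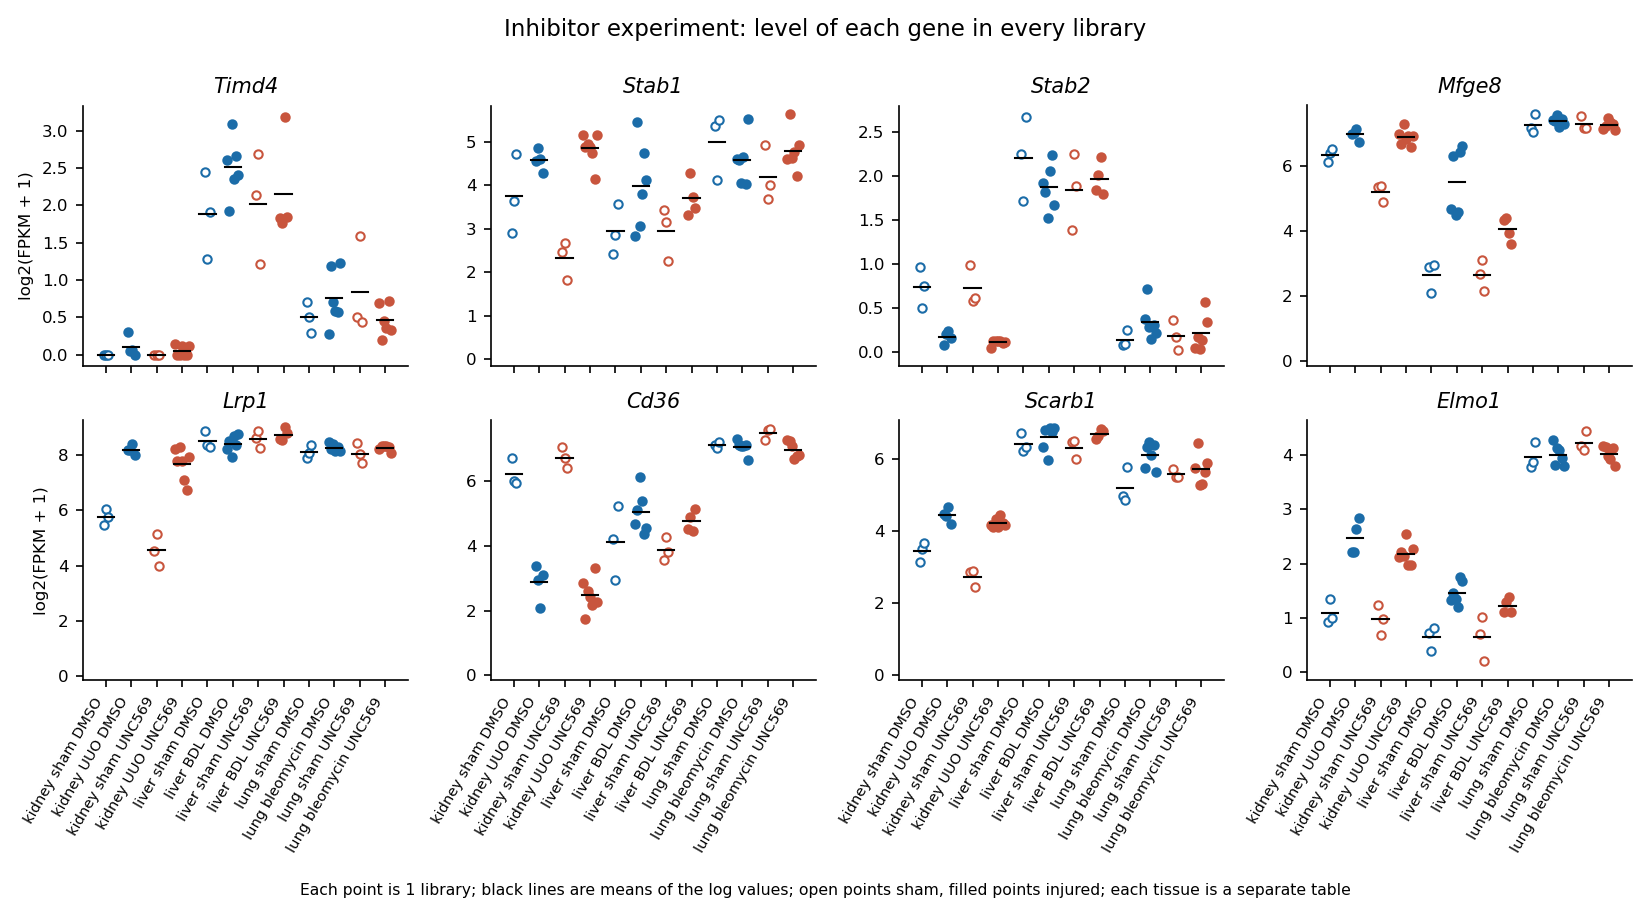
Levels of the 8 genes in every library of the inhibitor experiment as log2(FPKM + 1), by organ and group, with sham as open points and injured as filled points. Cd36 falls with obstruction in kidney in both arms, from 60.6 FPKM or more in sham to 9.38 FPKM or less, while lung groups overlap for most genes.

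Between obstructed kidneys with UNC569 and with DMSO, 0 of the 6 genes tested passed in limma, 0 had an unadjusted p under 0.05, and 1.3% of all genes passed. The log2 fold changes ran from -0.49 ± 0.27 for Lrp1 to 0.27 ± 0.27 for Stab1 (adjusted p = 0.331 and 0.621). The sham kidneys did differ, with 4 of the 6 genes lower with UNC569 and none higher. Of all genes 19.3% passed in either direction, 2033 higher and 928 lower. Mfge8 fell from 69.2, 82.5 and 90.4 FPKM with DMSO to 40.2, 40.97 and 28.4 FPKM with UNC569, a log2 fold change of -1.13 ± 0.18 (adjusted p = 8.92e-04). Stab1 changed by -1.43 ± 0.35 (adjusted p = 0.00979), Lrp1 by -1.22 ± 0.35 (adjusted p = 0.0224) and Scarb1 by -0.71 ± 0.17 (adjusted p = 0.00962). In all 4 every UNC569 sham library lay below every DMSO sham library. Cd36 (log2 0.51 ± 0.36, adjusted p = 0.344) and Elmo1 (log2 -0.12 ± 0.21, adjusted p = 0.740) did not pass. Without the third DMSO sham library or without the third UNC569 sham library, Mfge8 was the only gene of the 4 that passed, and the others had adjusted p = 0.0528 to 0.112. Lrp1 also did not pass without the second DMSO or the first UNC569 sham library (adjusted p = 0.0940 and 0.0512).

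Some other markers differed between these sham kidneys in the same direction. All 8 endothelial markers were lower with UNC569, at a summed 147 to 264 FPKM beside 389 to 550.0 FPKM with DMSO, and 4 of 9 macrophage markers were lower, at 66.7 to 132 FPKM beside 166 to 208 FPKM. Of the 8 proximal tubule markers 0 passed. The hepatocyte gene Alb was at 1.57 to 56.6 FPKM with DMSO and 0.555 to 1.09 FPKM with UNC569, though the hepatocyte marker sums overlapped (446 to 827 and 499 to 682.5 FPKM). The adipocyte gene Adipoq went the other way, at 0 to 6.74 and 5.86 to 10.2 FPKM. The part of these cells, or of other tissue, in the lower levels of the 4 genes was not tested. The UUO response itself differed by arm for Stab1 (log2 1.71 ± 0.44, adjusted p = 0.0136) and Mfge8 (log2 1.05 ± 0.23, adjusted p = 0.00560), 2 of the 6 genes, both larger with UNC569, where 19.6% of all genes passed. Scarb1 (log2 0.48 ± 0.22, adjusted p = 0.127), Lrp1 (log2 0.72 ± 0.44, adjusted p = 0.260), Cd36 (log2 -0.90 ± 0.45, adjusted p = 0.169) and Elmo1 (log2 -0.18 ± 0.27, adjusted p = 0.676) did not pass, and Scarb1 passed after rescaling the table by median-of-ratios factors (0.66, adjusted p = 0.0475). That rescaling moved the median over all genes by 0.16 in the difference of responses, by -0.13 between sham arms and by 0.14 in the UNC569 UUO comparison. The 4 lower genes in sham kidney kept their direction and their call under it, with log2 values of -0.87 to -1.59. It also changed how all genes split between sham arms, from 2033 higher and 928 lower to 1194 higher and 1657 lower, and in the difference of responses from 947 and 2053 to 1615 and 1324.

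In ligated liver with DMSO, 2 of the 8 genes rose and none fell, where 5.47% of 12986 genes rose and 7.92% fell (710 and 1028 genes, or 929 and 789 after median-of-ratios scaling, which moved the median over all genes by 0.12). Mfge8 was at 6.396, 3.26 and 6.72 FPKM in sham and, over 6 BDL libraries, 21.3 to 96.2 with a median of 51.8 FPKM. The BDL libraries fell into 3 values of 21.3 to 24.7 FPKM and 3 of 78.9 FPKM or more, all above sham, and Mfge8 rose by 2.88 ± 0.46 (adjusted p = 8.70e-04). Elmo1 was at 0.643, 0.314 and 0.753 FPKM in sham and 1.29 to 2.39 with a median of 1.64 FPKM after BDL, without overlap, and rose by 0.82 ± 0.21 (adjusted p = 0.0179). It did not pass without the second sham library (0.70, adjusted p = 0.105). Stab1 (log2 1.04 ± 0.47, adjusted p = 0.155) and Cd36 (log2 0.91 ± 0.42, adjusted p = 0.165) had an unadjusted p under 0.05 and did not pass. Over all 12986 genes 3703 had an unadjusted p under 0.05. Timd4 (log2 0.63 ± 0.37, adjusted p = 0.278), Stab2 (log2 -0.34 ± 0.24, adjusted p = 0.378), Lrp1 (log2 -0.09 ± 0.22, adjusted p = 0.836) and Scarb1 (log2 0.18 ± 0.21, adjusted p = 0.625) did not pass. Of the 9 macrophage markers 6 rose, from a summed 199.5 to 463 FPKM in sham to 690.5 to 1721 FPKM after BDL. Of the 4 genes tested from the alveolar macrophage list 3 rose, the list summing to 8.77 to 11.3 FPKM and then 33.3 to 93.04 FPKM. That list names a lung cell type and shares Marco with the Kupffer list, so in liver it does not mark alveolar macrophages. Of 7 Kupffer markers 1 rose and 1 fell. The part of macrophages and Kupffer cells in the rise of Mfge8 and Elmo1 was not tested.

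With UNC569, 0 of 8 genes passed in limma between ligated and sham liver, where 3.66% of genes rose and 4.9% fell. Mfge8 and Elmo1 had an unadjusted p under 0.05, as did 2978 of 12986 genes. Mfge8 was at 5.32, 7.54 and 3.41 FPKM in sham and 19.1, 19.9, 14.3 and 11.2 FPKM after BDL, all above sham (log2 1.43 ± 0.50, adjusted p = 0.0849). Elmo1 was at 0.622, 1.03 and 0.159 FPKM and 1.17, 1.44, 1.62 and 1.15 FPKM, also above sham (log2 0.58 ± 0.23, adjusted p = 0.134). The other 6 ran from 0.12 ± 0.26 for Stab2 to 0.87 ± 0.45 for Cd36 on the log2 scale (adjusted p = 0.835 and 0.263). Of the 9 macrophage markers 1 rose. Between arms in BDL liver 0 of 8 passed beside 0.316% of all genes. Mfge8 alone of the 8 had an unadjusted p under 0.05, as did 1454 of all genes. For Mfge8 all 4 UNC569 values lay below all 6 DMSO values (log2 -1.45 ± 0.42, adjusted p = 0.173). Of the macrophage markers 0 of 9 passed, at a summed 388 to 1164 FPKM with UNC569 and 691 to 1721 FPKM with DMSO. In sham liver 0 of 8 genes and 0% of all genes passed, and 0 of the 8 had an unadjusted p under 0.05. In the comparison of BDL responses by arm 0 of 8 genes and 0% of all genes passed, with Mfge8 alone of the 8 at an unadjusted p under 0.05 (log2 -1.44 ± 0.68, adjusted p = 0.999). Over all genes 610 had such a p.

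In lung 0 of the 7 genes that passed the filter on low values passed any of the 5 comparisons in limma. With DMSO 0.0251% of 15935 genes rose and 0.0439% fell (4 and 7 genes, 11 and 8 after median-of-ratios scaling, 18 and 7 with a pseudocount of 0.1). Beside 3122 of all genes, Scarb1 alone of the 7 had an unadjusted p under 0.05. It was at 30.5, 28.2 and 54.3 FPKM in sham and 48.96 to 88.3 with a median of 74.6 FPKM with bleomycin, overlapping in the third sham library (log2 0.91 ± 0.25, adjusted p = 0.0970). It passed without that library (1.20, adjusted p = 0.0106). The other 6 ran from -0.42 ± 0.37 for Stab1 to 0.26 ± 0.27 for Timd4 (adjusted p = 0.555 and 0.625), with Mfge8 at 0.12 ± 0.13, Lrp1 at 0.16 ± 0.14 and Elmo1 at 0.05 ± 0.13. With UNC569 0.0188% of genes rose and 0.00628% fell after bleomycin, and 1687 of all genes had an unadjusted p under 0.05. Cd36 alone of the 7 had such a p, at 154, 191 and 192 FPKM in sham and 102 to 152 with a median of 123 FPKM with bleomycin, without overlap (log2 -0.51 ± 0.15, adjusted p = 0.307). The other 6 ran from -0.38 ± 0.27 for Timd4 to 0.59 ± 0.37 for Stab1 (adjusted p = 0.622 and 0.584), with Mfge8 at -0.03 ± 0.13 and Elmo1 at -0.20 ± 0.13.

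Between arms 0 of 7 genes passed in bleomycin lung (0% of all genes, 0 of the 7 at an unadjusted p under 0.05) and 0 of 7 in sham lung (0% of all genes). In sham lung Cd36 alone of the 7 had an unadjusted p under 0.05, as did 1206 of 15935 genes. For Cd36 the 3 UNC569 libraries lay above the 3 DMSO libraries (log2 0.38 ± 0.17, adjusted p = 0.639). In the comparison of bleomycin responses by arm 0 of 7 genes and 0% of all genes passed, with Cd36 (log2 -0.46 ± 0.21, adjusted p = 0.404) and Scarb1 (log2 -0.78 ± 0.36, adjusted p = 0.407) at an unadjusted p under 0.05. Over all genes 1893 had such a p. Sham lung libraries were not alike: cardiac muscle markers summed to 2710, 2752 and 77.5 FPKM with DMSO and to 117, 2987 and 111 FPKM with UNC569. The library that was low with DMSO, the third, is the one with the high Scarb1 value, and the part of this tissue in the Scarb1 values was not tested. Adipocyte markers were uneven too, summing to 4.49 to 734 FPKM in sham lung with DMSO and 14.2 to 2418 FPKM with UNC569. With bleomycin they summed to 4.79 to 293 and 8.06 to 218 FPKM. The part of muscle or fat tissue in the Cd36 values was not tested either. Stab1 was at 15.4 to 44.6 with a median of 23.2 FPKM in bleomycin lung with DMSO and at 17.5 to 48.9 with a median of 24.9 FPKM with UNC569, overlapping the sham ranges of 39.9, 16.5 and 44.2 and 29.3, 11.8 and 15.03 FPKM.

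**Figure D3:**
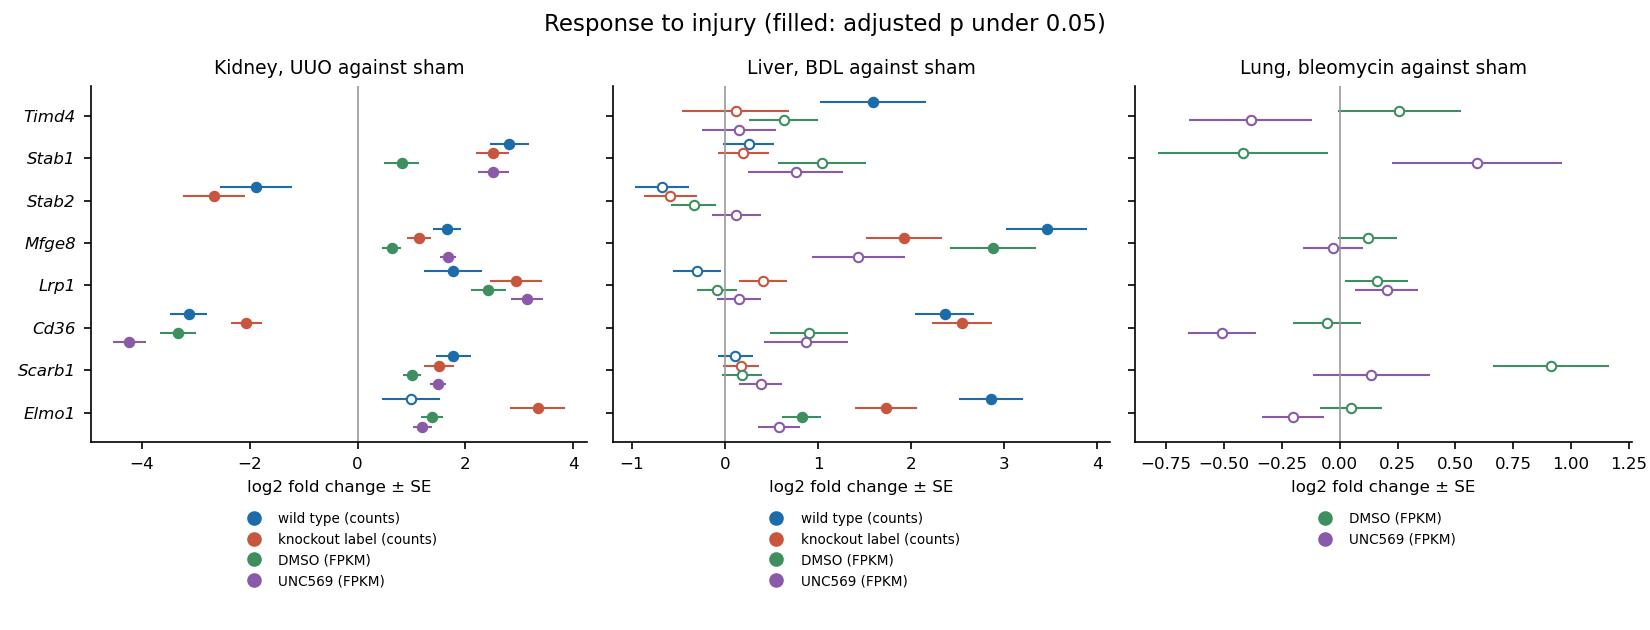
Log2 fold change ± SE of each gene between injured and sham libraries, by organ and arm, with filled points for an adjusted p under 0.05 (CPM in the knockout experiment, log2(FPKM + 1) in the inhibitor experiment). Cd36 lies at -2.06 or lower in the 4 kidney comparisons and at 0.91 or higher in the 3 liver comparisons with wild type, knockout label or DMSO, while Mfge8 is above 0 in all kidney and liver comparisons.

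Side by side, the kidney comparisons of the 2 experiments share no library and, in the main fits, called Lrp1, Scarb1, Mfge8 and Stab1 higher and Cd36 lower in all 4 arms. The wild-type Lrp1 call and the DMSO Stab1 call were lost in several omissions of 1 library. With the 2 left-out libraries included, Lrp1, Cd36 and Scarb1 did not pass in wild type, nor did Scarb1 under the knockout label. Cd36 had log2 fold changes of -3.13 ± 0.34 in wild type, -2.06 ± 0.28 under the knockout label, -3.33 ± 0.33 with DMSO and -4.24 ± 0.30 with UNC569. Elmo1 was called higher in 3 of the 4. In liver, Mfge8 and Elmo1 were called in wild type, under the knockout label and with DMSO, and Cd36 under both genotype labels. Cd36 thus differed in sign between obstructed kidney and ligated liver in the knockout experiment; the difference between organs was not tested. Scarb1, Lrp1 and Stab1, called higher in every kidney comparison, were called in no liver comparison of injury with sham.

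**Figure D4:**
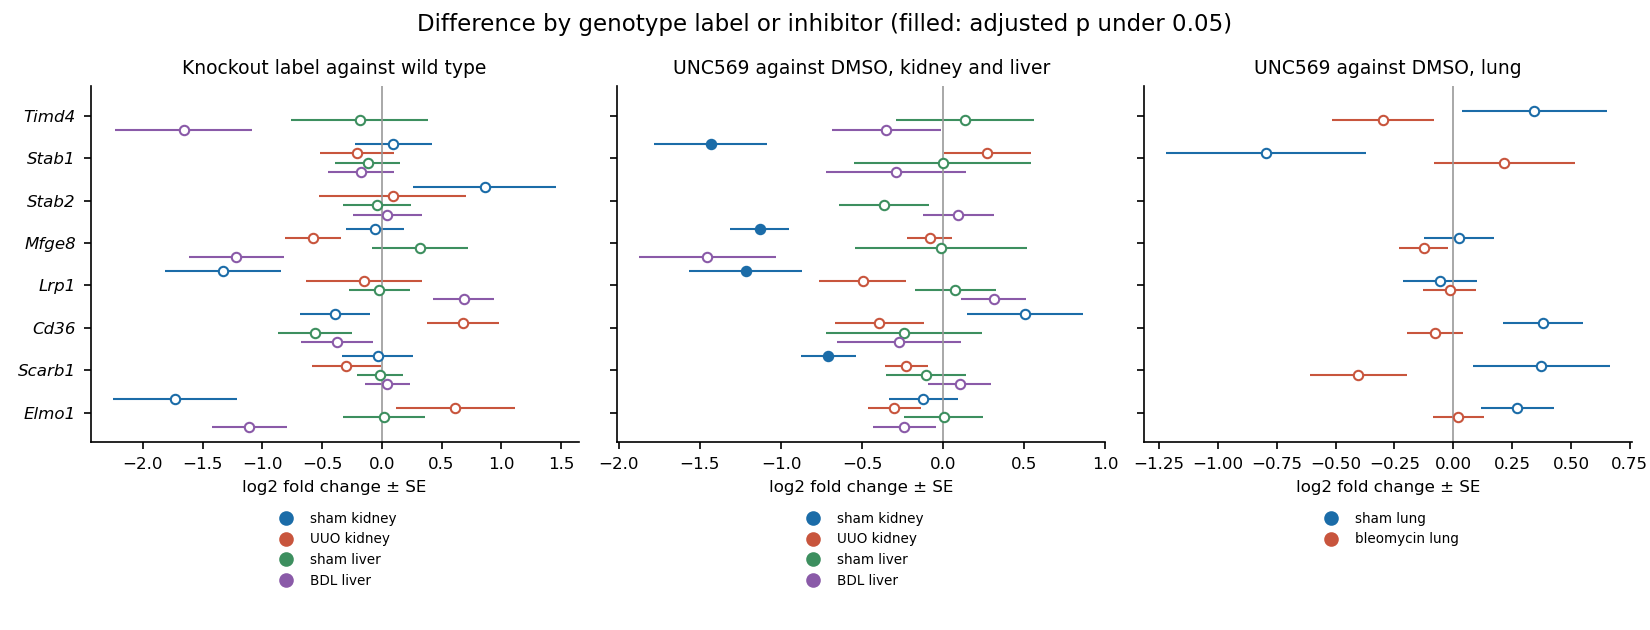
Log2 fold change ± SE of each gene between knockout label and wild type (left), and between UNC569 and DMSO in kidney and liver (middle) and in lung (right), by organ and injury, with filled points for an adjusted p under 0.05 and a separate scale in each panel. The 4 filled points are Stab1, Mfge8, Lrp1 and Scarb1 in sham kidney, from -0.71 to -1.43.

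Other genes of the efferocytosis pathway, a list of 67, gave the setting. In wild-type UUO kidney 38 of 66 tested rose and 4 fell, beside 23.3% and 16% of all genes, with a median log2 fold change of 1.09 beside 0.16 over all genes. By role, the genes that rose were 5 of 6 phosphatidylserine receptors, 6 of 7 scavenger receptors, 7 of 10 bridging proteins and integrins, 4 of 4 don't-eat-me signals, 4 of 6 find-me signals or receptors, 5 of 11 engulfment signalling genes, 4 of 10 lipid handling genes and 3 of 12 phagosome and lysosome genes. Differences between roles were not tested. Among those that rose were Havcr1, a phosphatidylserine receptor of injured tubule (8.19 ± 0.76, adjusted p = 8.57e-06), Cd14 (4.31 ± 0.29, adjusted p = 1.69e-06) and Panx1, a channel that releases find-me signals (3.28 ± 0.29, adjusted p = 8.27e-06). Lpl, a lipase (-2.88 ± 0.30, adjusted p = 1.46e-05), the lysosomal membrane gene Lamp1 (-0.74 ± 0.19, adjusted p = 0.00773), the autophagy gene Atg5 (-0.73 ± 0.17, adjusted p = 0.00392) and the nuclear receptor gene Rxra (-0.54 ± 0.20, adjusted p = 0.0491) fell. Under the knockout label 46 of 66 rose and 8 fell, beside 34.7% and 24.4% of all genes, with Cd14 (4.48 ± 0.25, adjusted p = 1.39e-07), Panx1 (4.10 ± 0.25, adjusted p = 1.78e-07) and the cholesterol exporter Abca1 (3.16 ± 0.23, adjusted p = 4.67e-07) at the smallest p. With DMSO 42 of 62 rose and 10 fell after UUO, beside 29.7% and 25.8% of all genes, with Havcr1 (6.72 ± 0.25, adjusted p = 5.12e-12), Cd14 (3.73 ± 0.13, adjusted p = 5.12e-12) and the complement gene C1qc (3.87 ± 0.19, adjusted p = 1.08e-10) higher and Lpl (-3.27 ± 0.25, adjusted p = 1.58e-08), Nr1h3 (-2.07 ± 0.22, adjusted p = 4.23e-07) and Lamp1 (-0.90 ± 0.12, adjusted p = 5.89e-06) lower. With UNC569 37 of 62 rose and 11 fell, beside 27.5% and 34.5% of all genes, with Cd14 (4.34 ± 0.12, adjusted p = 1.24e-13), Havcr1 (7.30 ± 0.23, adjusted p = 2.97e-13) and C1qc (4.82 ± 0.17, adjusted p = 1.27e-12) at the smallest p.

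In wild-type BDL liver 34 of 63 rose and 3 fell, beside 16.3% and 12.8% of all genes, with a median of 0.80 beside 0.03 over all genes. The integrin gene Itgam (5.01 ± 0.66, adjusted p = 1.17e-04), the bridging protein gene Thbs1 (4.68 ± 0.69, adjusted p = 2.73e-04) and the integrin gene Itgav (1.40 ± 0.22, adjusted p = 4.02e-04) rose, and the scavenger receptor gene Scarf1 (-1.81 ± 0.32, adjusted p = 9.65e-04), the lipid sensor gene Nr1h3 (-0.75 ± 0.25, adjusted p = 0.0309) and the autophagy gene Atg7 (-0.47 ± 0.15, adjusted p = 0.0278) fell. Under the knockout label 23 of 63 rose and 3 fell, beside 14% and 11.2% of all genes. Cd14 (9.13 ± 1.53, adjusted p = 0.00103) and Thbs1 (4.06 ± 0.68, adjusted p = 0.00105) were among those that rose, and Scarf1 (-2.04 ± 0.33, adjusted p = 7.78e-04), S1pr1 (-1.53 ± 0.30, adjusted p = 0.00292) and Rubcn (-1.05 ± 0.35, adjusted p = 0.0367) fell. Cd14 was very uneven over these BDL libraries, with a mean of 1172 and an SD of 2190 CPM, beside a mean of 2.08 CPM in sham. Between labels in BDL liver, Nr1h2 was higher (1.09 ± 0.24, adjusted p = 0.0384) and Itgav (-1.08 ± 0.21, adjusted p = 0.0370) and Dock2, an Elmo partner (-1.63 ± 0.44, adjusted p = 0.0489), were lower, 3 of the 63 tested beside 4.39% of all genes. With DMSO 20 of 58 rose and 2 fell after BDL, beside 5.47% and 7.92% of all genes. Thbs1 (2.38 ± 0.32, adjusted p = 2.33e-04), Cd300lf (2.11 ± 0.27, adjusted p = 1.58e-04) and Cd24a (2.45 ± 0.35, adjusted p = 4.02e-04) were among those that rose with DMSO, and S1pr1 (-1.19 ± 0.21, adjusted p = 0.00186) and Colec12 (-0.57 ± 0.18, adjusted p = 0.0408) fell. With UNC569 4 rose and 1 fell, beside 3.66% and 4.9%: Itgb3 (1.42 ± 0.27, adjusted p = 0.00350), Cd300lf (1.36 ± 0.29, adjusted p = 0.00781), Marco (2.22 ± 0.60, adjusted p = 0.0290) and Cd68 (1.12 ± 0.32, adjusted p = 0.0384) higher and S1pr1 (-0.83 ± 0.23, adjusted p = 0.0324) lower.

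In the UUO kidney Cd47, a don't-eat-me signal, was lower with UNC569 than with DMSO (-0.84 ± 0.20, adjusted p = 0.0477), the only one of 62, beside 1.3% of all genes. Between sham kidneys 4 of 62 were higher and 10 lower with UNC569, where 19.3% of all genes passed in either direction, a share near that of the list. By direction all genes split the other way, with 2033 higher and 928 lower. Among those lower were the lipid sensor gene Ppard (-1.52 ± 0.20, adjusted p = 2.92e-04) and the complement genes C1qa (-1.49 ± 0.23, adjusted p = 7.53e-04) and C1qc (-1.18 ± 0.20, adjusted p = 0.00119), and the 4 higher were Rab5a (1.18 ± 0.26, adjusted p = 0.00600), Crk (0.90 ± 0.20, adjusted p = 0.00609), Ucp2 (0.98 ± 0.27, adjusted p = 0.0187) and Abca1 (0.72 ± 0.21, adjusted p = 0.0225). The UUO response differed by arm for 12 of the 62 (7 larger and 5 smaller with UNC569), again near the 19.6% of all genes, with Ppard larger (1.36 ± 0.26, adjusted p = 0.00242) and Ucp2 (-1.78 ± 0.34, adjusted p = 0.00247) and Cd47 (-1.58 ± 0.33, adjusted p = 0.00393) smaller with UNC569. Over all genes 947 were larger and 2053 smaller. Both of these splits of all genes turned with median-of-ratios scaling. In BDL liver 1 of 58 was higher and 3 were lower with UNC569, beside 0.316% of all genes. Itgb3 was higher (1.11 ± 0.23, adjusted p = 0.0483), and Cd24a (-1.95 ± 0.32, adjusted p = 0.0293), Thbs1 (-1.65 ± 0.29, adjusted p = 0.0295) and Cx3cr1 (-1.96 ± 0.39, adjusted p = 0.0483) were lower. In lung Thbs1 rose with DMSO (1.66 ± 0.29, adjusted p = 0.0380), the only one of 62, beside 0.0251% of all genes that rose. Wild-type sham liver held more Npc1 (2.98 ± 0.22, adjusted p = 1.39e-11) and Rxra (2.80 ± 0.26, adjusted p = 9.90e-10) and less Cx3cl1 (-5.68 ± 0.44, adjusted p = 3.05e-11) than sham kidney.

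Genes of like pattern were sought in the organ of the inhibitor experiment where each gene had the highest median sham level with DMSO, by Pearson's r of log2(FPKM + 1) over 16 liver or 18 lung libraries, as a description with no test. Libraries of a group share their treatment, so r mixes differences between groups with those within them. Timd4 in liver was most like Clec4f (r = 0.93) and Cd5l (r = 0.92), both Kupffer cell markers, then Pilrb2 (r = 0.88). The central 95% of all genes had r between -0.60 and 0.59 with Timd4. Lrp1 in liver was most like Cd302 (r = 0.91), Scarb1 in liver most like Dap (r = 0.91) and Stab2 in liver most like Fabp4 (r = 0.75). In lung Elmo1 was most like Dach1 (r = 0.91), Cd36 most like Enpp4 (r = 0.88) and Mfge8 most like Rsu1 (r = 0.81).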

How the data were processed

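Bulk RNA was measured in 86 mouse samples, 54 of them of the inhibitor experiment. Per the labels' protocols, RNA came from a Qiagen kit and was prepared with TruSeq RNA v2, which does not mark strand. The submitters' processing notes name FastQC, Trim Galore, STAR and edgeR without versions, and the builds hg38 and mm10. For the knockout experiment the authors deposited raw counts per gene; the unstranded column was read, so antisense overlap cannot be told apart. For the inhibitor experiment they deposited FPKM tables, whose columns name a group but not a sample: 51 columns, with 7 for 8 samples in UUO with UNC569 and 4 for 6 in BDL with UNC569. Their depth is unknown. The tool that made the FPKM values is not given in the sources used here.

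Counts were tested by quasi-likelihood F tests (edgeR 4.0.16, R 4.3.3, TMM factors, filterByExpr), with the 4 groups of an organ in 1 fit, and 30 libraries of both organs in 1 fit for liver against kidney. Genes with at least 1 FPKM in at least 3 libraries were tested on log2(FPKM + 1) with limma 3.58.1 and an intensity trend. P-values were adjusted by Benjamini-Hochberg over all genes of a comparison. The scripts were checked on simulated data. Alternatives were DESeq2 1.42.0, other scaling factors, no filter on low values, a pseudocount of 0.1, the replicate number as a block, and the omission of single libraries, of those noted to have a bad sequence file (9 in number) and of BDL knockout 1 and 3. In kidney the noted libraries were sham wild type 3 and 4, UUO wild type 3 and 4 and sham knockout 2, so most were wild type. All 8 genes were taken through every comparison, and where few or none passed, those not past the threshold are given as a range or a count. Of 67 further efferocytosis genes, the 3 with the smallest p past the threshold are named, in each direction for injury in wild-type or DMSO mice. Others named where 5 or fewer passed were chosen after their values were seen. The genes, lists and library exclusions were chosen with earlier results of these data known. No 2 libraries of a group were near-identical (smallest chi-square per degree of freedom 12.7 for counts). Same-numbered libraries did not deviate together (r from -0.30 to 0.27), so the numbers were not taken as pairs. The gene of most like pattern to Stab1 is not reported here.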

Additional observations from a re-analysis of the deposited data

Results flagged for a closer look

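A few single libraries lay far from the rest of their group by Dixon's criterion, 7 of 95 groups of 4 to 10 libraries, where chance gives about 1 in 20. Mfge8 was at 117 CPM in BDL knockout 2, above 25.1 to 39.8 CPM in the other 3, and the macrophage marker sum was highest in the same library. Cd36 was at 187 CPM in BDL wild type 4. Timd4 was at 8.05 FPKM in 1 BDL liver with UNC569, where the Kupffer marker sum was 442 FPKM beside 131 to 167 FPKM in the other 3. Stab1 was at 44.6 FPKM in 1 bleomycin lung with DMSO and at 48.9 FPKM in 1 with UNC569. Stab2 was at 0.646 FPKM in 1 bleomycin lung with DMSO and at 0.0375 FPKM, the lowest value, in 1 UUO kidney with UNC569.

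The UUO response differed between UNC569 and DMSO for Stab1 (difference of log2 fold changes 1.71) and Mfge8 (1.05), by limma's test of the difference itself. Of all genes 19.6% passed the same test. Both genes were lower with UNC569 in sham kidney, with means of 4.15 beside 14.5 FPKM for Stab1 and 36.5 beside 80.7 FPKM for Mfge8. Neither passed between the obstructed kidneys of the arms.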

How the results depend on the processing

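Of 3772 values of single genes recomputed under the alternatives, 3697 stayed on their side of the threshold (130 of these differed in sign, past it under neither setting), 49 lost and 25 gained a call, and 1 reversed: Scarb1 in wild-type UUO kidney, at log2 -0.41 with the 2 left-out libraries. The total includes omissions of libraries outside the groups compared and comparisons where no gene of the 8 passed, so it does not measure how stable the calls are. Of 524 recomputed counts of the 8 genes past the threshold, 13 moved by over 1.5 times (any change from 0 is counted so). With DESeq2 the count went from 0 to 1 for labels in sham kidney, to 1 for the difference of UUO responses by label and to 4 for labels in BDL liver. No count is given for wild-type kidney without the libraries with a bad sequence file, where only sham wild type 2 and UUO wild type 2 were left. Leaving out each library in turn gave 0 to 1 for labels in sham kidney, 0 to 2 for the difference of UUO responses by label, 0 to 3 for labels in BDL liver, 0 to 1 for the difference of BDL responses by label, 1 to 4 for UNC569 in sham kidney, 1 to 2 for BDL with DMSO and 0 to 1 for bleomycin with DMSO, where the libraries concerned were sham wild type 4, BDL wild type 1, BDL knockout 2, and sham DMSO and UNC569 libraries of the inhibitor tables. Smaller moves were 4 to 6 for UUO in wild type, 5 to 6 with DMSO, 2 to 3 for the UUO response by arm, 3 to 4 for BDL under either label and 7 to 8 for liver against kidney. With the replicate number as a block, Timd4 in wild-type BDL liver was the only gene that changed its call among the comparisons by edgeR, at 1.46. Counts over all genes were less stable: labels in sham kidney went from 1 to 315 with DESeq2 and to 4002 without sham wild type 4, the difference of UUO responses by label from 0 to 1651 and 5127, and labels in BDL liver from 592 to 1908 with DESeq2, 322 without the filter, 239 with the block and 0 to 1921 when 1 library was left out. Wild-type BDL calls went from 3927 to 5951 and knockout-label BDL calls from 3392 to 2142 without BDL knockout 1 and 3. UNC569 against DMSO went from 199 to 46 in UUO kidney with a pseudocount of 0.1, and from 41 to 15 in BDL liver, or 1 without the filter. Leaving out 1 library moved these 2 counts to 7 to 329 and 0 to 143, and took sham kidney by arm from 2961 to as few as 1597, the UUO response by arm from 3000 to 1963, BDL with DMSO from 1738 to 730 and BDL with UNC569 from 1111 to 471. Bleomycin with DMSO went from 11 to 1911 genes without the third sham library. Timd4 and Stab2 in kidney rest on few reads.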
